A study of Triticum turgidum subsp. durum with 4 samples.

Results

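The sequences described here are those that the deposited miRNA table of durum wheat seedlings names miR9863, miR2118 or miR482, families known from other plants for pairing with transcripts of NLR immune receptors. They were picked by the family number in the name, with any species prefix and with variants included, and each distinct sequence was counted once. Of 2111 distinct miRNA sequences, 27 met this rule, namely 23 of miR9863, 3 of miR2118 and 1 of miR482. The small RNA came from shoots of 12-day-old seedlings of the DBA Aurora genotype, called stress-tolerant (T), and the Line 6 genotype (L6), called stress-sensitive (S). The parents of the seedlings were either control plants (CG) or plants kept under water-deficit and heat stress (WH), and the seedlings themselves were all raised in the same glasshouse without that stress. TCG was DBA Aurora from control parents, TWH was DBA Aurora from stressed parents, SCG was L6 from control parents and SWH was L6 from stressed parents. Each of these seed groups gave 1 library, made from the pooled RNA of 8 seedlings, so no spread between replicates could be measured. Every p-value from a pair of libraries therefore compares the reads of those libraries and not the seed groups.

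NLR proteins are intracellular receptors that recognise pathogen effectors and trigger plant immunity. In barley, miR9863 pairs with transcripts of the Mla group of NLR genes, and its longer forms start the production of phased secondary siRNAs from the cleaved transcript. The related miR482 and miR2118 families pair with the stretch that encodes the P-loop of NLR proteins in many eudicots, whereas miR2118 in grasses is known mainly as the trigger of phased siRNAs in developing anthers. No target transcript, cleavage or phased siRNA was measured in these libraries.

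The abundant miR9863 sequences are shown first because the comparisons rest on them, 5′ to 3′ as the deposited table writes them (T for U), with bases 2 to 8, the seed, in capitals.
ata-miR9863a-3p: tGAGAAGGtagatcataatagc
ata-miR9863a-3p_1ss9TC: tGAGAAGGcagatcataatagc
ata-miR9863a-3p_2ss9TC22CG: tGAGAAGGcagatcataatagg
ata-miR9863a-3p_L+3_1ss12TC: aGATGAGAaggcagatcataatagc
ata-MIR9863a-p3_1ss14TC: tTAGATGAgaaggcagatcata
ata-MIR9863a-p3: tCTGAAGActagtttattaca
ata-MIR9863a-p5: tTCTCATCtgaagactagttta
ata-miR9863a-5p_1ss21CT: tGTTATGAtctgcttctcatt
The names follow miRBase entries of the goat grass Aegilops tauschii (ata), with differences from the entry after the name (1ss for 1 substitution, its position and both bases, L and R for bases added or missing at the left or right end). Positions given below count from 1 at the 5′ end of ata-miR9863a-3p, the main form. The first pair of sequences differs by T9C alone and has the same seed, and 7 of the 27 members share that seed. No other sequence of the table had these bases 2 to 8. The seed of ata-MIR9863a-p3_1ss14TC was shared with 3 sequences named miR827. The 4 sequences below show base 9 of the main form in capitals, so that the shifted ends can be compared.
ata-miR9863a-3p: tgagaaggTagatcataatagc
ata-miR9863a-3p_1ss9TC: tgagaaggCagatcataatagc
ata-miR9863a-3p_L+3_1ss12TC: agatgagaaggCagatcataatagc
ata-MIR9863a-p3_1ss14TC: ttagatgagaaggCagatcata

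The authors placed 4 of these 8 sequences on 2 long hairpins of the durum genome Svevo.v1. The hairpin on the plus strand of chr1B:72552405-72552556 has 152 bases and a predicted folding energy of -63.2 kcal/mol, and the one on the plus strand of chr1A:48027157-48027328 has 172 bases and an energy of -77.6 kcal/mol. Capitals mark ata-miR9863a-3p and ata-miR9863a-5p_1ss21CT on the first, and ata-miR9863a-3p_1ss9TC and ata-MIR9863a-p3 on the second.
hairpin of chromosome 1B: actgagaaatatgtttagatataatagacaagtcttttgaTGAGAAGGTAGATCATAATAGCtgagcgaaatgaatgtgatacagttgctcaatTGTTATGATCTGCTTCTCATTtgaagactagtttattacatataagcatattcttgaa
hairpin of chromosome 1A: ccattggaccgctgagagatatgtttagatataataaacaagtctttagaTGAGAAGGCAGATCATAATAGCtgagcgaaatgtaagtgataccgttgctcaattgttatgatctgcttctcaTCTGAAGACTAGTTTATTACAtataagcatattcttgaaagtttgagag
The member named 3p lay on the 5′ arm of both hairpins. On the chromosome 1B hairpin, ata-miR9863a-3p (bases 41 to 62) and ata-miR9863a-5p_1ss21CT (bases 95 to 115) formed a duplex with 2 unpaired bases at each 3′ end, the form that Dicer-like enzymes are known to leave. On the chromosome 1A hairpin, ata-MIR9863a-p3 (bases 124 to 144) began 1 base after base 123, the pairing partner of the first base of ata-miR9863a-3p_1ss9TC (bases 51 to 72), so both lay on opposite arms without forming such a duplex. Whichever precursor the table listed for them, 7 members matched the chromosome 1A hairpin exactly and 4 matched that of chromosome 1B.

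**Figure D1:**
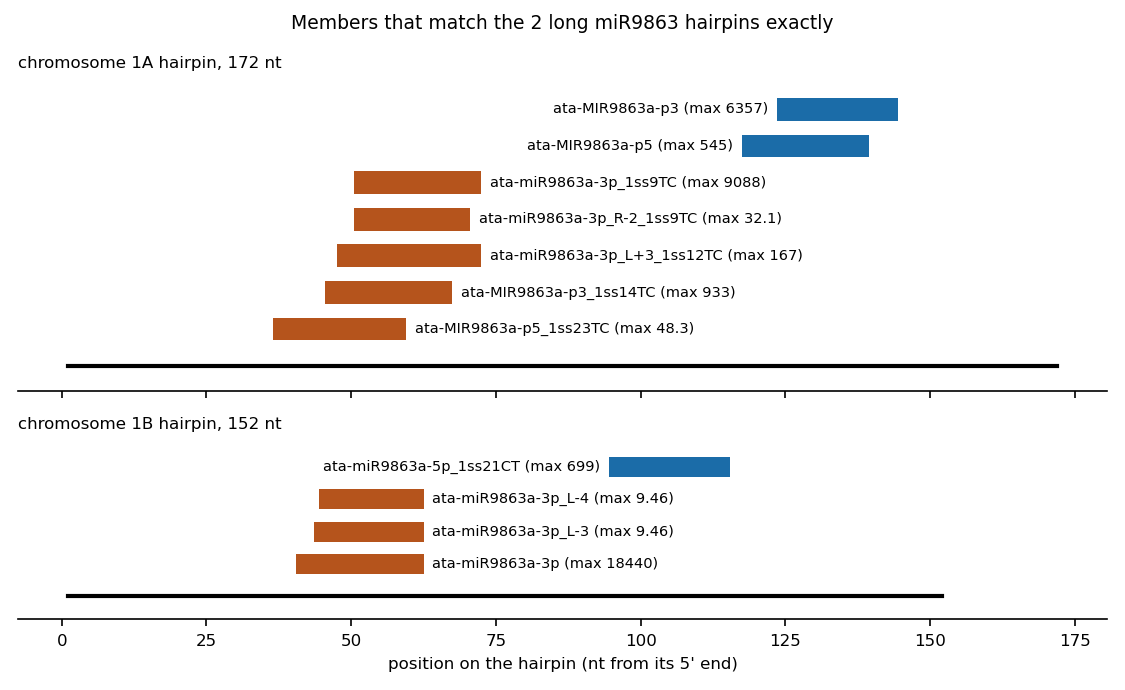
Positions of the 11 members that matched the chromosome 1A hairpin (172 nt) or the chromosome 1B hairpin (152 nt) exactly, as bars along the hairpin in nt from its 5′ end (black line), with orange for the 5′ arm, blue for the 3′ arm and the highest normalised count over the 4 libraries in brackets. On chromosome 1A the most abundant sequence of each arm reached 9088 and 6357, and on chromosome 1B the 5′ arm reached 18440 and the 3′ arm 699.

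Both hairpins had further precursors beside them, so some members cannot be given to 1 locus. On chromosome 1A, the 2 precursors of members spanned 1642 bases, and on chromosome 1B the 3 precursors spanned 1787 bases. The precursor at chr1B:72552674-72552712, 117 bases after the chromosome 1B hairpin, also held ata-miR9863a-3p_1ss9TC exactly, and that at chr1A:48028711-48028798 also held ata-MIR9863a-p3 exactly. The main form was found exactly at 1 site, the chromosome 1B hairpin, among the precursors in the table. No annotated gene overlapped these clusters, and the nearest ones were TRITD_1Av1G022450, 23247 bases before the chromosome 1A hairpin, and TRITD_1Bv1G027910, 117813 bases after that of chromosome 1B. The precursors listed for ata-miR9863a-3p_1ss6AC (chr1B:14431655-14431755) and ata-miR9863a-3p_1ss4GT (chr1B:14458964-14459053) both lay within the gene TRITD_1Bv1G006220. For 8 of the 25 members with a genome position the listed precursor did not hold the sequence exactly, among them ata-miR9863a-3p_1ss6AC. Of the 21 distinct precursors with a genome position, 8 had a folding energy of -15 kcal/mol or lower, the limit that the study set for new hairpins.

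Reads of the miRNA sequences numbered 994074 in TCG, 1096670 in TWH, 1293324 in SCG and 855716 in SWH, in which 21, 24, 23 and 21 of the members were found. Of the 27 members, 16 were found in all 4 libraries, 4 in 3, 6 in 2 and 1 in 1. Reads of 22 nt, the length known in plants for starting phased siRNAs, made up 78.6 to 82.3% of the members' reads, whereas they made up 21.2 to 23.0% of all miRNA reads. Values below are the authors' normalised counts, the read number times 1 factor per library. The tables list almost no value under 5 reads, so a sequence listed at 0 may have had fewer than 5 reads, and 5 reads stood for a value of 4.16 in SCG to 5.99 in SWH. Folds against 5 reads take the listed count as it stands and leave out its counting error.

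The miR9863 family took a similar share of the miRNA reads in the 4 libraries, most of it in 3 sequences. Its 23 sequences took 3.20% of the miRNA reads in TCG, 3.32% in TWH, 3.18% in SCG and 3.23% in SWH. The summed normalised counts were 32917, 34441, 34270 and 33144, with TWH highest and TCG lowest. The main form ata-miR9863a-3p stood at 18440 in TCG, 18260 in TWH, 16453 in SCG and 16885 in SWH, and ranked 9, 8, 10 and 7 among all sequences. Both DBA Aurora libraries lay above both L6 libraries for the main form. Its single-base variant ata-miR9863a-3p_1ss9TC stood at 7017, 8037, 9088 and 8276 in TCG, TWH, SCG and SWH. The opposite-arm sequence ata-MIR9863a-p3 stood at 4848, 5590, 6357 and 5637 in the same order. Both were lowest in TCG and highest in SCG, which is the order opposite to the main form at both ends. These 3 sequences held 92.1 to 93.1% of the family's reads.

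**Figure D2:**
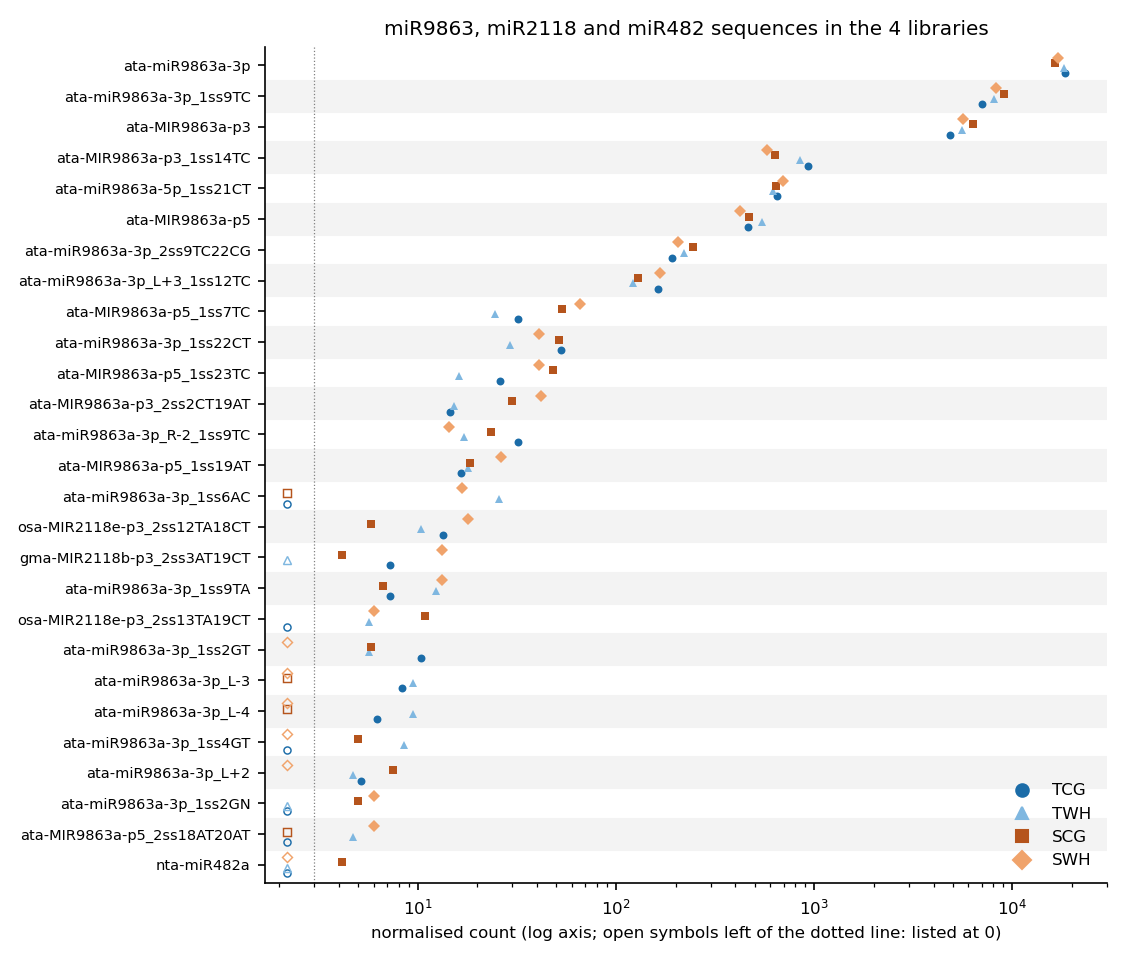
Normalised counts of the 27 members (rows) in TCG, TWH, SCG and SWH on a log axis, with open symbols left of the dotted line for sequences listed at 0. The main form and 2 further sequences stand above the others in each library, 5 more lie above 100, and the other 19 stay below 100.

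The share of the position 9 C form against the T form differed in each of the 4 pairs of libraries. Among the reads of ata-miR9863a-3p and ata-miR9863a-3p_1ss9TC, the C form took 27.6% in TCG (95% Wilson interval 27.0 to 28.1), 30.6% in TWH (30.0 to 31.1), 35.6% in SCG (35.0 to 36.1) and 32.9% in SWH (32.3 to 33.5). The 4 intervals did not overlap. The C to T ratio was higher in TWH than in TCG by a log2 of 0.21 (adjusted p = 9.19e-14, Fisher's exact test on reads, adjusted over the 4 pairs), but lower in SWH than in SCG, with a log2 of -0.17 (adjusted p = 3.42e-10). It was higher in L6 than in DBA Aurora with either kind of parent, by 0.54 between SCG and TCG (adjusted p = 1.17e-89) and by 0.16 between SWH and TWH (adjusted p = 4.49e-08). A ratio within a library does not depend on the scaling between libraries. These intervals and tests cover counting error alone, as the reads carry no molecular identifiers. With all members that have C (6) or T (10) at base 9, which leaves out the 1 with A, the C share came to 31.1% in TCG, 33.5% in TWH, 38.1% in SCG and 35.4% in SWH, with the same direction in each pair.

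Other members kept or changed their proportion to the main sequence of the same hairpin arm or of the opposite arm. These ratios were chosen after their values were seen and are given without a test. For 100 reads of ata-miR9863a-3p_1ss9TC there were 69.1, 69.5, 70.0 and 68.1 reads of ata-MIR9863a-p3 in TCG, TWH, SCG and SWH, and the highest ratio was 1.03 times the lowest. The variant ata-miR9863a-3p_2ss9TC22CG, with normalised counts of 191, 220, 245 and 205, likewise stood at 2.73, 2.73, 2.69 and 2.48 for 100 reads of the C form. The C form, its opposite-arm sequence and its end variant thus kept nearly the same proportions in the 4 libraries. The 5′-shifted sequence ata-MIR9863a-p3_1ss14TC behaved otherwise, with 13.3, 10.5, 6.94 and 7.0 reads for 100 reads of the C form. The shifted opposite-arm sequence ata-MIR9863a-p5 stood at 6.58, 6.78, 5.14 and 5.13 for 100 reads of the C form, again higher in both DBA Aurora libraries. On the chromosome 1B hairpin, the duplex partner ata-miR9863a-5p_1ss21CT stood at 3.53, 3.41, 3.92 and 4.14 for 100 reads of the main form.

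**Figure D3:**
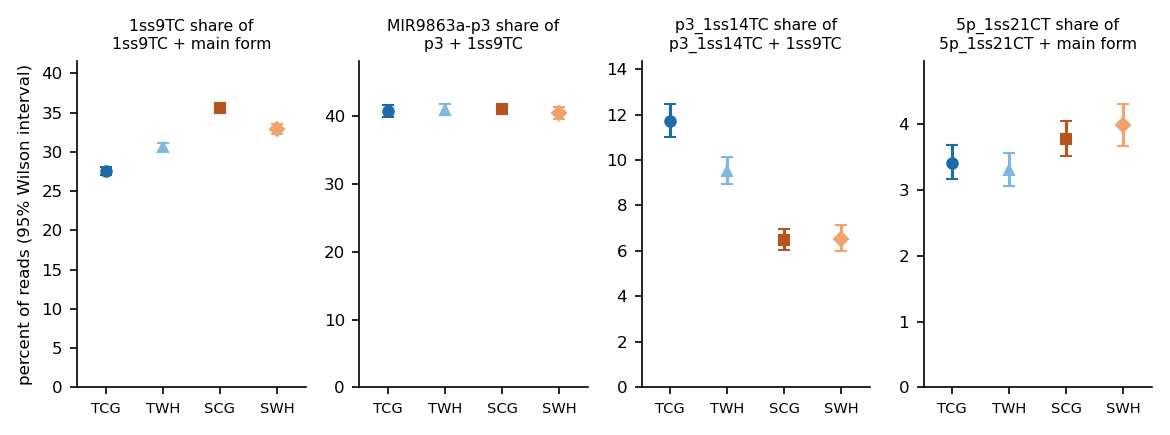
Shares of reads in percent (points) with 95% Wilson intervals for TCG, TWH, SCG and SWH, for the position 9 C form (1ss9TC) against the main form, MIR9863a-p3 against 1ss9TC, p3_1ss14TC against 1ss9TC, and 5p_1ss21CT against the main form. The C share runs from 27.6% in TCG to 35.6% in SCG, the MIR9863a-p3 share lies between 40.5 and 41.2% in all 4 libraries, and the p3_1ss14TC share is higher in TCG and TWH (11.7 and 9.51%) than in SCG and SWH (6.49 and 6.54%).

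The first pair comparison asked how seedlings of DBA Aurora from stressed parents differed from those of control parents. In TWH vs TCG, ata-miR9863a-3p_1ss9TC was up-regulated by a log2 fold change of 0.20 (95% counting interval 0.15 to 0.24), and ata-MIR9863a-p3 by 0.21 (0.15 to 0.26). The main form, at -0.01 (-0.04 to 0.02), did not pass. The tests were a chi-squared test and Fisher's exact test of a sequence's normalised count against those of all other sequences, with p under 0.05 asked of both, so they compare shares of a library's total. Of 25 members found in either library, 11 passed both tests, which is 44.0% of them beside 34.3% of all 1977 sequences found there. They were 6 higher in TWH (24.0%, beside 15.9%) and 5 lower (beside 18.4%). Among the 8 members with at least 100 in a library, the changes ran from -0.42 for ata-miR9863a-3p_L+3_1ss12TC to 0.24 for ata-MIR9863a-p5. An absolute log2 fold change above 1 beside both tests, the limit by which the study singled out the larger changes, was reached by 4 members (16.0%, beside 22.0% of all sequences). Each of these 4 was listed at 0 in 1 of the libraries.

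In L6, the same sequences took the other direction. In SWH vs SCG, ata-miR9863a-3p_1ss9TC was down-regulated with a log2 fold change of -0.14 (-0.18 to -0.09) and ata-MIR9863a-p3 with -0.17 (-0.23 to -0.12), while ata-miR9863a-3p_L+3_1ss12TC was higher by 0.37 (0.04 to 0.70). The total of the normalised counts itself had a log2 difference of -0.07 in this pair. As shares of the miRNA reads, the changes of these members were -0.07, -0.10 and 0.44 in the same order. The main form passed both tests at 0.04 (0.01 to 0.07), as its share of the miRNA reads was 1.53% in SCG and 1.65% in SWH. Its partner ata-miR9863a-5p_1ss21CT, at 644 in SCG and 699 in SWH, also passed, although the interval of its fold change on normalised counts, -0.04 to 0.27, included 0. Of 25 members, 11 passed both tests (44.0%, beside 29.1% of 1967 sequences), 7 higher in SWH (28.0%, beside 12.3%) and 4 lower (16.0%, beside 16.8%), and 6 were past the fold limit as well (24.0%, beside 19.4%). These 6 include ata-miR9863a-3p_1ss2GT, ata-miR9863a-3p_L+2 and ata-MIR9863a-p5_2ss18AT20AT, each listed at 0 in 1 library. Their bounds against 5 reads were 0.972-fold, 1.25-fold and 1.44-fold, so they are not shown to reach the limit.

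Between the genotypes, the main form was lower in L6 and the C form higher in the seedlings of control parents. In SCG vs TCG, ata-miR9863a-3p had a log2 fold change of -0.16 (-0.19 to -0.14), ata-miR9863a-3p_1ss9TC of 0.37 (0.33 to 0.42) and ata-MIR9863a-p3 of 0.39 (0.34 to 0.44). The shifted sequence ata-MIR9863a-p3_1ss14TC, at 933 in TCG, 844 in TWH, 631 in SCG and 579 in SWH, was lower with -0.56 (-0.70 to -0.42). Of 25 members, 12 passed both tests (48.0%, beside 43.6% of 2039 sequences), 7 higher in SCG (28.0%, beside 19.7%) and 5 lower (beside 23.8%), and 4 were past the fold limit as well (16.0%, beside 30.2%). In SWH vs TWH, ata-MIR9863a-p3_1ss14TC was again lower with -0.54 (-0.70 to -0.38), ata-MIR9863a-p5 with -0.36 (-0.55 to -0.17) and the main form with -0.11 (-0.14 to -0.08). The C form passed both tests at 0.04, with an interval on normalised counts that included 0, and ata-MIR9863a-p3, at 0.01 (-0.04 to 0.07), did not. Of 26 members, 15 passed both tests (57.7%, beside 42.9% of 1985 sequences), 8 higher in SWH (30.8%, beside 18.5%) and 7 lower (26.9%, beside 24.4%), and 9 were past the fold limit as well (34.6%, beside 29.8%). In both genotype pairs, members listed at 0 in 1 library were among those past the fold limit. Some of them are not shown to reach it against 5 reads, such as ata-miR9863a-3p_L-4 (1.49-fold in SCG vs TCG) and ata-miR9863a-3p_1ss2GT (0.947-fold in SWH vs TWH). The pairs share libraries, so these counts are not independent of each other. Fold changes of this size were common among abundant sequences, as the median absolute log2 fold change of the 95 to 101 sequences with at least 1000 in both libraries was 0.17, 0.14, 0.37 and 0.19 in the 4 pairs, in the order given here. With a negative binomial test that allows for a spread beyond counting, none of the calls on the 8 members with at least 100 remained, and the members called were then 4, 5, 5 and 7, beside 17.8, 17.0, 26.0 and 19.9% of all sequences. All those called in TWH vs TCG and SCG vs TCG, and some in the other pairs, were listed at 0 in 1 library. Such a 0 may stand for fewer than 5 reads, but the test took it as 0.

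**Figure D4:**
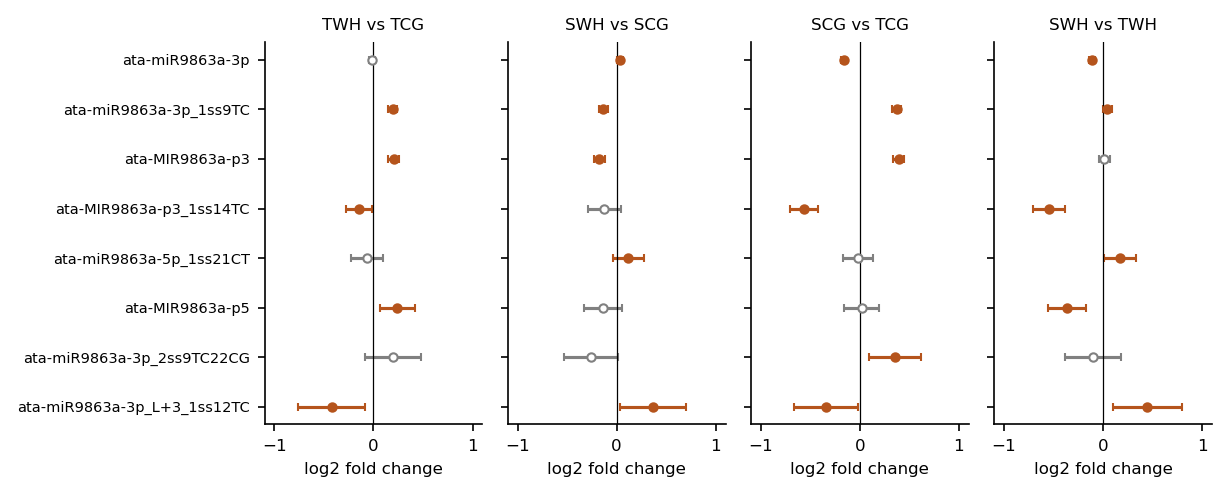
Log2 fold changes of normalised counts (points) with 95% counting intervals for the 8 members with at least 100 in a library, in the parent comparisons of DBA Aurora and L6 and the genotype comparisons of control and stressed parents, with filled orange for p under 0.05 in both tests and open grey otherwise. 1ss9TC and MIR9863a-p3 lie right of 0 in TWH vs TCG (0.20 and 0.21) and left of it in SWH vs SCG (-0.14 and -0.17), and p3_1ss14TC lies at -0.56 and -0.54 between the genotypes.

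As a whole, the family moved little. The summed miR9863 count had a log2 fold change of 0.07 in TWH vs TCG (0.04 to 0.09), which passed both tests. In SWH vs SCG it was -0.05 on normalised counts (-0.07 to -0.03), but the family's share of the reads was 3.23% in SWH and 3.18% in SCG, and the tests, which compare shares, passed in that upward direction (p = 0.0458, Fisher's exact test). The total of the normalised counts itself had a log2 difference of -0.07 in this pair, so the fall of the summed count is not a fall of its share. It was 0.06 in SCG vs TCG, where the shares of 3.20 and 3.18% did not differ in the tests (p = 0.500, Fisher's exact test), and -0.06 in SWH vs TWH (-0.08 to -0.03), with a lower share in SWH. Within this sum, the part that matched the chromosome 1A hairpin exactly took 41.0% of the family's reads in TCG, 44.1% in TWH, 48.9% in SCG and 45.7% in SWH, and the part that matched that of chromosome 1B took 58.0, 54.9, 49.9 and 53.1%. The 2 parts were thus nearly equal in SCG and furthest apart in TCG.

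Of the rare miR9863 members, those under 100 in every library, 3 stood higher in both L6 libraries than in both DBA Aurora libraries and passed both tests in both genotype comparisons. Of all sequences, 19.7% passed as higher in SCG than in TCG and 18.5% as higher in SWH than in TWH. The share of all sequences that passed in both was not counted, so these 3 are not shown to stand out. Their sequences are shown with the seed in capitals. The first and second start upstream of the main form and have seeds of their own. The third is shorter than ata-MIR9863a-p3 and differs from it at the bases given in its name.
ata-MIR9863a-p5_1ss7TC: aACAAGCCtttagatgagaa
ata-MIR9863a-p5_1ss23TC: aACAAGTCtttagatgagaaggc
ata-MIR9863a-p3_2ss2CT19AT: tTTGAAGActagtttattt
The first stood at 32.1 in TCG, 24.6 in TWH, 53.3 in SCG and 65.9 in SWH, and in the table it matched exactly the third precursor of the chromosome 1B cluster, chr1B:72554157-72554191, alone. The second stood at 25.9, 16.1, 48.3 and 40.8 in the same order, and the third at 14.5, 15.1, 30.0 and 42.0. In SWH vs TWH their log2 fold changes were 1.42 (0.75 to 2.09), 1.34 (0.50 to 2.18) and 1.47 (0.62 to 2.32). In SCG vs TCG they were 0.73, 0.90 and 1.05. All 6 of these comparisons passed both tests, on 14 to 64 reads per library, and the 3 in SWH vs TWH also passed with adjusted p and with the negative binomial test described above. The 3 in SCG vs TCG did not, with adjusted Fisher p of 0.0931, 0.0552 and 0.0659 and exact negative binomial p of 0.156, 0.0922 and 0.0856 in the order given.

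The variants ata-miR9863a-3p_1ss6AC and ata-MIR9863a-p5_2ss18AT20AT were listed in both libraries of stressed parents and at 0 in both of control parents. The paper reports other miRNAs found only in libraries of stressed parents, and the share of all sequences with the pattern of these variants was not counted. The variant ata-miR9863a-3p_1ss6AC carries A6C, so its seed differs from that of the main form at 1 base.
ata-miR9863a-3p_1ss6AC: tGAGACGGtagatcataatagc
The normalised count of ata-miR9863a-3p_1ss6AC was 25.6 (27 reads) in TWH and 16.8 (14 reads) in SWH, which is 0.140% and 0.0994% of the main form, and 0 in TCG and SCG. Against the minimum of 5 reads, its listed count was 4.94-fold higher in TWH than in TCG and 4.03-fold higher in SWH than in SCG, before counting error. The count of ata-MIR9863a-p5_2ss18AT20AT was 4.73 in TWH and 5.99 in SWH, values at the minimum of 5 reads. Although it passed both tests in SWH vs SCG, values at that minimum show no difference in reads from a listed 0. Among the other rare members with a single substitution and the same ends, the T9A variant, at 7.25, 12.3, 6.66 and 13.2 in TCG, TWH, SCG and SWH, was also higher in both libraries of stressed parents, but it passed the tests in no pair. The G2T variant stood at 10.4, 5.68 and 5.83 in the first 3 of these libraries and was listed at 0 in SWH. The G4T variant was listed at 8.52 in TWH and 5.0 in SCG, and the C22T variant at 52.8, 29.3, 51.6 and 40.8. For the C22T variant, TWH vs TCG was lower with a log2 fold change of -0.85 (-1.49 to -0.20), a call that was lost with the negative binomial test (p = 0.168).

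The remaining rare members lay near the recording minimum. The 5′-shortened forms ata-miR9863a-3p_L-3 and ata-miR9863a-3p_L-4 were listed in both DBA Aurora libraries, at 8.28 and 6.21 in TCG and at 9.46 each in TWH, and at 0 in both L6 libraries. Against 5 reads in SCG, their listed counts in TCG, of 8 and 6 reads, were 1.99-fold and 1.49-fold higher, before counting error. The forms differ from the main form by 3 and 4 missing bases alone and occurred exactly in 5 and 7 precursors of the table. In the opposite way, ata-miR9863a-3p_1ss2GN, whose second base was not read, was listed at 5.0 in SCG and 5.99 in SWH and at 0 in DBA Aurora, values of 6 and 5 reads. How many of all sequences were listed in both libraries of a genotype and at 0 in the other genotype was not counted. The length variant ata-miR9863a-3p_R-2_1ss9TC stood at 32.1, 17.0, 23.3 and 14.4 in TCG, TWH, SCG and SWH and was lower in TWH than in TCG with -0.91 (-1.75 to -0.08). That call was lost with adjusted p (Fisher's exact test, 0.0986) and with the negative binomial test (p = 0.166). The form ata-miR9863a-3p_L+2 was listed at 5.18, 4.73 and 7.49 in TCG, TWH and SCG and at 0 in SWH. The last member, ata-MIR9863a-p5_1ss19AT, stood at 16.6, 18.0, 18.3 and 26.4, nearly equal in TWH and SCG, and passed the tests in no pair. The longest form, ata-miR9863a-3p_L+3_1ss12TC with 25 nt, was well above these, at 164, 122, 129 and 167.

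**Figure D5:**
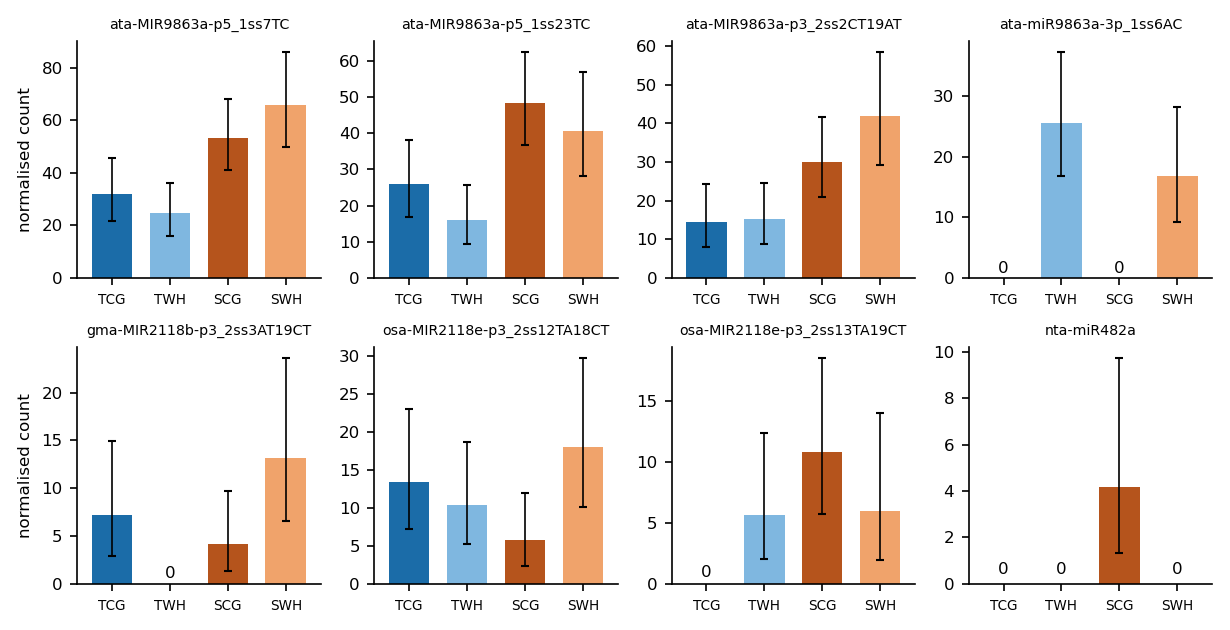
Normalised counts (bars) with exact Poisson 95% intervals for 4 rare miR9863 members, the 3 members named miR2118 and nta-miR482a, named in the panel titles, in TCG, TWH, SCG and SWH, with 0 where a sequence was listed at 0. MIR9863a-p5_1ss7TC, MIR9863a-p5_1ss23TC and MIR9863a-p3_2ss2CT19AT are higher in SCG and SWH than in TCG and TWH, 1ss6AC has bars in TWH (25.6) and SWH (16.8) alone, and nta-miR482a has 1 bar of 4.16 in SCG.

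A genotype effect common to both kinds of parents, and a parent effect common to both genotypes, were each fitted over all 4 libraries by edgeR's quasi-likelihood method, which leaves 1 residual degree of freedom. Of the 16 members whose normalised count averaged at least 10, 0 were called for the genotype effect, beside 1 of 1258 sequences (0.0795%), and 4 had an unadjusted p under 0.05, beside 13.8% of all sequences. These 4 were ata-MIR9863a-p3_2ss2CT19AT with a log2 fold change of 1.26 in L6 (edgeR adjusted p = 0.233), ata-MIR9863a-p5_1ss23TC with 1.11 (0.233), ata-MIR9863a-p5_1ss7TC with 1.07 (0.264) and ata-MIR9863a-p3_1ss14TC with -0.55 (0.287). DESeq2, limma with a pseudocount of 1 and limma with a pseudocount of 10 also called 0 members, beside 2.78, 0.874 and 0.318% of all sequences, and had 1, 3 and 4 members at an unadjusted p under 0.05, beside 8.90, 12.3 and 13.9%. For the parent effect 0 of 16 members were called, beside 0% of all sequences, and 1 member, ata-miR9863a-3p_1ss6AC, had an unadjusted p under 0.05, beside 1.59% of all sequences. That member passed the filter only through the libraries of stressed parents, in which it was listed, so nothing is read from its p. DESeq2 and limma also called 0 members here, beside 0% of all sequences. At an unadjusted p under 0.05, DESeq2 had 1 member (beside 0.954% of all sequences), limma with a pseudocount of 1 had 2 (2.38%) and with a pseudocount of 10 had 1 (1.75%). The main form had -0.13 for L6 (adjusted p = 0.601) and 0.07 for stressed parents (adjusted p = 0.997), and the C form 0.21 (0.545) and 0.09 (0.997). When the filter on low counts was dropped, edgeR called ata-MIR9863a-p3_2ss2CT19AT for the genotype effect, beside 6.54% of all 2111 sequences, and ata-miR9863a-3p_1ss6AC for the parent effect, beside 0.142%.

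The miR2118 label was not borne out by the sequences, and miR482 rested on 5 reads. The 3 members named miR2118 are shown with bases 2 to 8 in capitals, followed by the stretches that the reference entries of rice (osa) and soybean (gma) give as mature miRNA, and by the miR482 member of tobacco (nta).
osa-MIR2118e-p3_2ss12TA18CT: aAAAGAGAgtcaaagagt
osa-MIR2118e-p3_2ss13TA19CT: gAAAAGAGagtcaaagagt
gma-MIR2118b-p3_2ss3AT19CT: tTTTTCTTttgccgattct
osa-MIR2118e mature stretch: tTCCCAATgcctcccatgccta
gma-MIR2118b mature stretch: tTGCCGATtccacccattcct
nta-miR482a: tTTCCAATtccacccattccta
The longer rice-named member aligned to bases 20 to 38 and the shorter to bases 21 to 38 of the reference entry of 177 bases, which share 0 bases with the mature stretch at bases 121 to 142. The soybean-named member overlapped the mature stretch shown for its entry at 11 of its 19 bases, and 10 of these 11 were identical. It overlapped the entry's other mature stretch, at bases 14 to 35, at 0 bases. The members are 18 or 19 nt long and not 22 nt, and the folding energies of their listed precursors, -5.6, -5.6 and -14.6 kcal/mol, did not reach -15. The rice-named members are the same sequence with and without its first base, and each occurred exactly at both chr1A:574444525-574444552 and chr7A:393648249-393648276. They are therefore called here by the names in the table, and not taken as miR2118. The nta-miR482a sequence equals the mature stretch of its reference entry over all 22 bases, but the table gives it no durum genome position.

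These members were rare in shoots, with 17 to 31 reads of the 3 miR2118-named sequences per library. The sequence osa-MIR2118e-p3_2ss12TA18CT stood at 13.5 in TCG, 10.4 in TWH, 5.83 in SCG and 18.0 in SWH. It was higher in SWH than in SCG by a log2 fold change of 1.63 (0.33 to 2.92), on 15 and 7 reads, and its other pairs did not pass both tests. The call was lost with adjusted p (Fisher's exact test, 0.0702) but not with the negative binomial test (p = 0.0371). The longer form osa-MIR2118e-p3_2ss13TA19CT was listed at 0 in TCG and stood at 5.68, 10.8 and 5.99 in TWH, SCG and SWH. Against 5 reads in TCG, its listed count in SCG was 2.09-fold higher, before counting error. The sequence gma-MIR2118b-p3_2ss3AT19CT stood at 7.25 in TCG, 4.16 in SCG and 13.2 in SWH and was listed at 0 in TWH. Against 5 reads in TWH, its listed count was 1.53-fold higher in TCG and 2.79-fold higher in SWH, before counting error. It was higher in SWH than in SCG by a log2 fold change of 1.66 (0.14 to 3.19), on 11 and 5 reads. This call in SWH vs SCG was lost with adjusted p (Fisher's exact test, 0.111) and with the negative binomial test (p = 0.0937). The summed count of the 3 was 20.7, 16.1, 20.8 and 37.2, and differed past both tests in SWH vs SCG (log2 0.84, 0.08 to 1.60) and in SWH vs TWH (1.21, 0.35 to 2.06). The nta-miR482a sequence had 5 reads in SCG, a normalised count of 4.16, and was listed at 0 in the other libraries, which at the minimum of 5 reads is no difference.

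Sequences of other families linked with NLR transcripts or phased siRNAs in plants were looked for by number (miR472, miR1507, miR1510, miR1885, miR2109, miR2275, miR5300, miR6019 and miR6027). Of these 9 families, 0 sequences were in the table. Among 314 sequences outside the 3 families whose normalised count averaged at least 100, the pattern over the 4 libraries most like that of the main form was that of ata-miR9674c-3p, with a root mean square difference of 0.03 on centred log2 counts. It was followed by bdi-MIR169c-p3 (0.03), tae-MIR5049-p5_1ss7AG (0.03), ata-miR9674c-3p_L-1R+1_1ss10GT (0.04) and ata-miR5168-5p (0.04). For the C form the nearest were tae-miR9674b-5p (0.03), PC-3p-5799_259 (0.04), tae-miR9675-3p_L-1R+1 (0.05), ata-miR164a-3p (0.06) and bdi-MIR7757-p3_2ss8GA18AG (0.06). The member ata-MIR9863a-p3 was nearer to the C form than any of the 314, at 0.01. With 4 libraries, these differences describe likeness and carry no test.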

How the data were processed

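Reads of 50 bp were trimmed by the authors with ACGT101-miR (version: not given in the sources used here), those of 18 to 25 nt were kept, and matches to RFam, Repbase and mRNA were discarded before the search in miRBase and in the durum genome Svevo.v1. The deposited read numbers are estimated counts, of which 59 to 67 values per library were not whole, and they were rounded for Fisher's test on reads, edgeR and DESeq2. The deposited normalised counts are a signal, the read number times 1 factor per library (0.833 to 1.20). Positions, folding energies and names in the deposited table are values of other kinds and were used as given. The columns of the authors' own comparisons were not used. Values under 5 reads numbered 1 to 8 per library. Of the table's entries, 28 were not analysed here.

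One row was kept for each distinct sequence. Pairs were compared with chi-squared and two-sided Fisher's exact tests, with edgeR 4.0.16 (TMM factors, additive model), limma 3.58.1 and DESeq2 1.42.0 for common effects and Benjamini-Hochberg adjustment over all sequences tested. Python 3.11.15 and R 4.3.3 were used, and the tests were first tested on simulated data. Log2 intervals are 95% intervals for counting error. The alternatives were p under 0.01, adjusted p, a margin of all names, raw reads, TMM scaling, a negative binomial exact test (common dispersion 0.0454), a count of at least 10, pseudocounts of 1 and 10, and no filter. Values in all 4 libraries were to be given for members with at least 100 in a library, members past both tests in a pair and all miR2118 and miR482 members, but every member could be named, and the 5 most alike sequences were taken by rule. The members, lists and tests were chosen with earlier results of these data known. Chromosome names were given by the order of the genome's sequences, checked by the last position on each, and gene neighbours come from the RefSeq gene table of the same assembly. The mature stretches are those in capitals in the reference entries of the table.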

Additional observations from a re-analysis of the deposited data

Results flagged for a closer look

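For 3 miR9863 members the change from control to stressed parents ran in opposite directions in the 2 genotypes, with both changes past the pair tests. The C form ata-miR9863a-3p_1ss9TC had a log2 fold change of 0.20 in TWH vs TCG and of -0.14 in SWH vs SCG, or 0.18 and -0.07 as shares of the miRNA reads. The opposite-arm sequence ata-MIR9863a-p3 had 0.21 and -0.17 (0.19 and -0.10 as shares), and ata-miR9863a-3p_L+3_1ss12TC had -0.42 and 0.37 (-0.43 and 0.44 as shares). Both calls of the latter were lost with adjusted p (Fisher's exact test, 0.0515 and 0.0564) and with the negative binomial exact test (p = 0.428 and 0.416), and those of the other 2 members were lost with the negative binomial test. With 1 library per seed group the difference between the genotypes was not tested. The median absolute log2 fold change of sequences with at least 1000 in both libraries was 0.17 and 0.14 in these pairs, and 77.8 and 76.2% of them passed both tests. How many of all sequences passed in opposite directions was not counted. The C form and ata-MIR9863a-p3 kept nearly the same proportion to each other, so they are not separate cases. The cause was not tested.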

How the results depend on the processing

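The direction held for most abundant members in the settings that could turn it, while many calls did not hold under stricter tests. For the pairs these settings were raw reads, TMM scaling and the negative binomial test, which was set beside the TMM fold changes. The other pair settings left each fold change of these members as it was. Members past both tests fell from 11, 11 and 12 to 6, 5 and 6 at p under 0.01 in TWH vs TCG, SWH vs SCG and SCG vs TCG (beside 20.9, 16.0 and 29.3% of all sequences), to 6 and 4 with adjusted p in the first 2 pairs (beside 21.1 and 13.7%), and to 4, 5, 5 and 7 with the negative binomial test in the 4 pairs (beside 17.8, 17.0, 26.0 and 19.9%). The share of all sequences fell in each of these settings too. Members past the fold limit as well fell to 1, 3, 2 and 4 with a count of at least 10 (beside 9.46, 7.37, 18.5 and 13.2%), to 1 (SWH vs SCG) and 2 (SCG vs TCG) at p under 0.01 (beside 9.61 and 19.2%), and to 1 (SWH vs SCG) with adjusted p (beside 7.98%). Under the negative binomial test the summed miR9863 values of 0.109, -0.0272 and -0.0593 (TWH vs TCG, SWH vs SCG, SWH vs TWH) and the summed miR2118 values of 0.853 and 1.20 (SWH vs SCG, SWH vs TWH) no longer passed. Without a filter edgeR called 1 of 27 members for each common effect, beside 138 and 3 of 2111 sequences. Directions turned, all near 0, for the main form in TWH vs TCG (0.0559 with TMM scaling and with the negative binomial test), for ata-miR9863a-5p_1ss21CT in TWH vs TCG (0.00375) and SCG vs TCG (0.0326) with the same settings, and for ata-MIR9863a-p5 in SCG vs TCG with raw reads (-0.0487). The parent effect turned for ata-miR9863a-3p_L+3_1ss12TC (-0.0126 with DESeq2, -0.0263 and -0.0243 with limma and pseudocounts of 1 and 10) and for ata-miR9863a-3p_2ss9TC22CG (-0.0161, -0.0292 and -0.0284). The negative binomial test assumes a spread that the pair tests leave out. For the other alternatives the cause was not tested. No paired analysis was possible because each seed group has 1 library and the libraries carry no replicate numbers. Leaving out a library leaves the model no residual degree of freedom, so it was not run. Calls below about 20 reads rest on counts near the recording minimum.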

Other observations

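The chromosome 1B hairpin carries a further sequence of the table outside the 3 families. PC-5p-6528_235, a predicted sequence of 21 nt, lies at chr1B:72552426-72552446, on bases 22 to 42 of the hairpin, so that its last bases overlap the first bases of ata-miR9863a-3p. Its normalised count was 74.5 in TCG, 119 in TWH, 110 in SCG and 126 in SWH. It was lowest in TCG, where the main form beside it was highest. In SCG, however, where the main form was lowest, PC-5p-6528_235 stood below TWH and SWH, so the orders were not opposite throughout.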
